A study of Astyanax mexicanus with 6 samples.

Results

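Liver chromatin of Astyanax mexicanus was compared between Tinaja cave fish and Surface fish, with 1 peak list for each form. The members are the union regions formed by merging every overlapping or touching peak of those 2 lists. A region with peaks of both lists is called shared, one with a Tinaja peak alone Tinaja-gained, and one with a Surface peak alone Tinaja-lost. The lists gave 102346 union regions, of which 70078 lay on the 25 numbered chromosomes and are described here unless scaffolds are named. Merging all 3 lists of the series gave 110214 regions. The labels give 2 samples (replicates 1 and 2) for Surface liver and 2 for Tinaja cave liver, with no age, sex, diet or treatment, and each list is recorded under replicate 1 of its form. Whether a list stands for 1 fish, a pool or both replicates is not given in the sources used here.

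Astyanax mexicanus, the Mexican tetra, has river populations with eyes and cave populations that lost eyes and pigment. Cave fish are known for large fat stores and for enduring long fasts, and the liver is the organ that makes, stores and exports lipid and glucose. Open chromatin marks the promoters and enhancers through which such tissue programmes are read. In ATAC-seq the Tn5 transposase cuts DNA that is not wrapped in nucleosomes and leaves sequencing adapters there, so a peak is a stretch with many cuts. Promoters in use usually give wide, strong peaks found in many samples, and distal elements narrower and more variable ones.

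The data behind each list were peak positions alone. On chromosomes, 50924 Surface peaks covered 34.5 Mb, and 58238 Tinaja peaks covered 37.2 Mb. Their median width was 539 bp in Surface (binomial order-statistic 95% interval 535 to 544) and 501 bp in Tinaja (interval 498 to 504). The narrowest peak was 212 bp in Surface and 226 bp in Tinaja, so each list had its own lower limit of width. The score column was 0 in every row, no read counts were given, and the depth of each list is unknown. Since each form has a single list, replicate error could not be measured and the forms were not tested against each other. Intervals below cover counting error alone. They treat regions as independent, which neighbouring regions need not be. Liver marker genes could not be checked, because no annotation of the files' build was used.

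The majority of the chromosomal regions were open in both livers, and among the others those gained in Tinaja were the more numerous. Shared regions numbered 37588, or 53.6% of the total (Wilson 95% interval 53.3 to 54.0). Tinaja-gained regions numbered 19801 (28.3%, interval 27.9 to 28.6) and Tinaja-lost regions 12689 (18.1%, interval 17.8 to 18.4). There were thus 7112 more gained than lost regions, a ratio of 1.56, and of the regions with peaks of 1 list 60.9% were gained (interval 60.4 to 61.5). The Tinaja list was the longer, with 58238 peaks against 50924. With the same number of widest peaks from each list, 15114 regions were gained and 15189 lost, a gained share of 49.9%. Equal list lengths bring that share near 50% by construction, because 96.3% of shared regions held 1 peak of each list. By the same count, the surplus of gained regions in the full lists largely restates the difference in list length.

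Most of the open sequence of each form lay in shared regions. Of the sequence under Surface peaks, 28.7 Mb (83.2%) lay in shared regions and 5.79 Mb (16.8%) in lost regions. Of that under Tinaja peaks, 28.0 Mb (75.2%) lay in shared regions and 9.22 Mb (24.8%) in gained regions. These values count whole peaks, including parts that the other list does not cover. Sequence under peaks of both lists made up 0.498 of the sequence under peaks of either list (Jaccard index). Counted in peaks, 75.1% of Surface peaks overlapped or touched a Tinaja peak (interval 74.7 to 75.5), and 66.0% of Tinaja peaks did so with a Surface peak (interval 65.6 to 66.4). With the same number of widest peaks from each list these shares were 70.2% and 70.3%, and equal list lengths bring them close by construction. Unmatched peaks had a similar median width in both lists, 370 bp in Surface and 372 bp in Tinaja, against 617 bp and 600 bp for matched peaks.

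Few regions sat within 50 bp of the limit between the classes. Of the shared regions, 59 (0.157%) had an overlap of under 50 bp in all, and in 1 of these the peaks only touched. Of the gained regions, 41 (0.207%) ended less than 50 bp from a Surface peak, and of the lost regions 52 (0.410%) less than 50 bp from a Tinaja peak. Within 1000 bp of the other list lay 1889 gained regions (9.54%) and 2478 lost regions (19.5%). A stricter rule, by which the overlap must cover at least 50% of both peaks, gave 32101 shared, 26137 gained and 18823 lost regions. By the main rule these were 37588, 19801 and 12689.

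Regions held by both lists were long, and those held by 1 list were short to a like degree in both directions. The median length was 721 bp for shared regions (interval 716 to 725), 372 bp for gained regions (interval 369 to 375) and 370 bp for lost regions (interval 367 to 374). A shared region is the union of several peaks, which lengthens it by construction. The quartiles were 285 and 525 bp for gained regions and 280 and 525 bp for lost regions. At least 1000 bp were reached by 10219 shared regions (27.2%), 1057 gained regions (5.34%, interval 5.03 to 5.66) and 581 lost regions (4.58%, interval 4.23 to 4.96). At least 2000 bp were reached by 1576 shared, 113 gained and 59 lost regions.

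**Figure D1:**
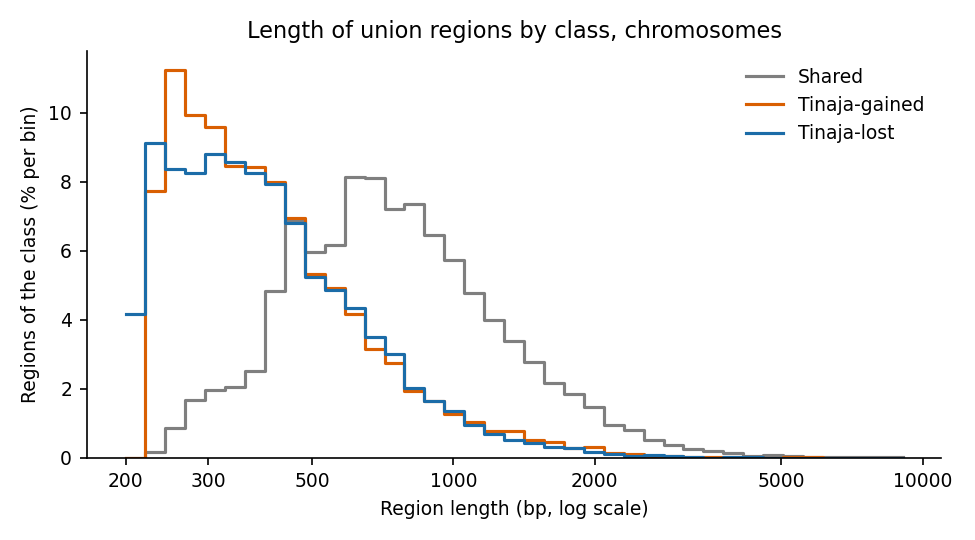
The x axis gives the length of union regions on chromosomes in bp on a log scale and the y axis the percentage of each class per bin, with lengths over 10000 bp placed in the last bin. The curves of gained and lost regions lie nearly on each other, with medians of 372 and 370 bp, and that of shared regions is displaced to a median of 721 bp.

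Gained regions outnumbered lost ones in every length class. The ratio of gained to lost was 1.52 under 300 bp (6002 against 3960), 1.60 from 300 to under 500 bp (8329 against 5210) and 4413 against 2938 regions gave a like ratio from 500 to under 1000 bp. It was 1.81 from 1000 to under 2000 bp, with 944 against 522 regions. From 2000 bp it was 1.92, where gained regions made up 65.7% with a wide interval of 58.3 to 72.4. The surplus of gained regions was therefore not limited to narrow ones, although the Tinaja list held fewer wide peaks than the Surface list, with 6856 against 7390 from 1000 to under 2000 bp.

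Wide peaks of either form were usually found in the other. Of Surface peaks under 300 bp, 52.1% were found in Tinaja (interval 50.99 to 53.1), and of those 2000 bp or wider, 94.8% were (interval 93.4 to 95.9). For Tinaja peaks found in Surface the values were 37.9% (interval 36.9 to 38.8) and 89.8% (interval 87.9 to 91.4). In the full lists, which differ in length, Surface peaks were the better matched in each of the 5 width classes. The gap was 14.2 percentage points under 300 bp, 8.47 from 300 to under 500 bp, 5.34 from 500 to under 1000 bp, 6.71 from 1000 to under 2000 bp and 5.02 above. The class under 300 bp began at unlike widths, 212 bp in Surface and 226 bp in Tinaja.

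**Figure D2:**
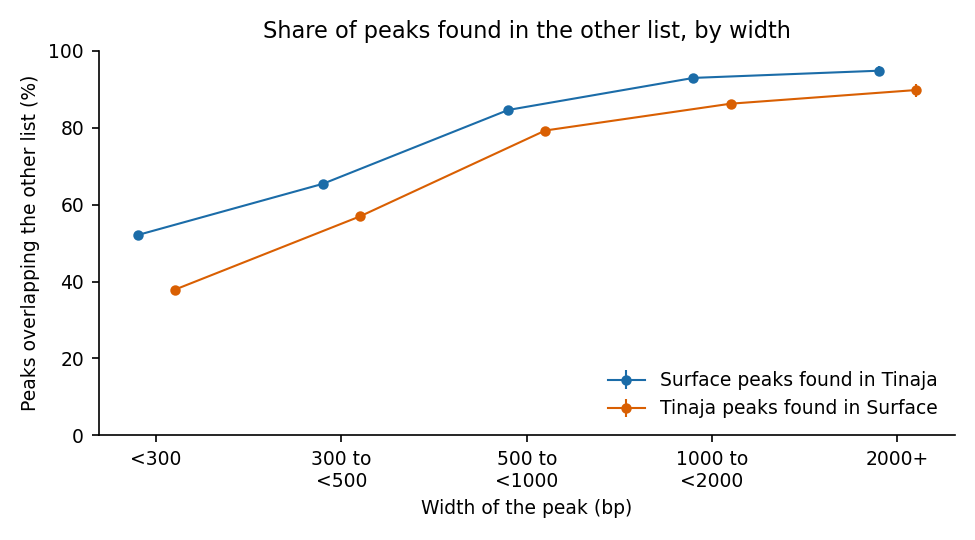
The x axis gives the width class of a peak in bp and the y axis the percentage of peaks on chromosomes that overlap or touch a peak of the other list, with Wilson 95% intervals as bars. Both curves rise, from 52.1% to 94.8% for Surface peaks and from 37.9% to 89.8% for Tinaja peaks, and the Surface curve is the higher in every class.

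Nearly all shared regions joined a single peak of each form. This one-to-one arrangement held in 36187 shared regions (96.3%). In 774 regions (2.06%) 1 Surface peak corresponded to several Tinaja peaks, in 579 (1.54%) several Surface peaks corresponded to 1 Tinaja peak, and in 48 (0.128%) both forms had several. Division of a wide peak occurred in both directions. On chromosome 17, positions 27194695 to 27206178, a single Surface peak of 11484 bp faced 4 Tinaja peaks that covered 3749 bp. On chromosome 10, positions 30929461 to 30939224, 4 Surface peaks covering 6463 bp faced 1 Tinaja peak of 9690 bp. On chromosome 12, positions 22243812 to 22252350, 4 Surface peaks covering 6256 bp faced 1 Tinaja peak of 8539 bp, and on chromosome 16, positions 20875667 to 20882398, 4 covering 4831 bp faced 1 of 6732 bp. Another 25 regions had 3 Tinaja peaks, the first by chromosome and position on chromosome 1 at positions 11266656 to 11271848 and on chromosome 2 at positions 23721769 to 23724941, each against 1 Surface peak.

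The peaks of both forms had similar median widths in the one-to-one regions and centres mostly close together, but their ends often differed. The median width was 613 bp in Surface and 594 bp in Tinaja, and the median difference within a region was -5 bp (Tinaja minus Surface, interval -6 to -3). The median log2 ratio of Tinaja over Surface width was -0.011 (interval -0.014 to -0.0074), a ratio of 0.993. Its 5th and 95th percentiles were -0.96 and 1.01, so the median balances wider against narrower peaks. Starts differed by a median of 49 bp, ends by 49 bp and centres by 53 bp. Both ends lay within 50 bp of each other in 9988 regions (27.6%), and both were identical in 60. In 10555 regions (29.2%) the Surface peak lay inside the Tinaja peak, in 9730 (26.9%) the Tinaja peak lay inside the Surface peak, and in 15842 (43.8%) they were staggered. In 466 regions (1.29%) the overlap was under 50% of the narrower peak.

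A change of width by a factor of at least 2 was found in both directions, slightly more often with the Tinaja peak the wider. The Tinaja peak was at least 2 times as wide in 1834 of the one-to-one regions (5.07%, interval 4.85 to 5.30) and the Surface peak in 1657 (4.58%, interval 4.37 to 4.80). The balance (Tinaja wider against Surface wider) varied with the mean width of the paired peaks. It was 696 against 463 regions from 300 to under 500 bp and 909 against 972 from 500 to under 1000 bp. From 1000 to under 2000 bp it was 212 against 210, and from 2000 bp 17 against 12. The narrowest peak was 212 bp in Surface and 226 bp in Tinaja. The effect of these unlike limits on the balance was not tested. Where Tinaja was the wider, a Surface peak of median 290 bp faced a Tinaja peak of median 821 bp. The extension was uneven, with a median of 433 bp on the larger side and 76 bp on the other. Where Surface was the wider, the medians were 888 bp in Surface and 328 bp in Tinaja, with 460 bp on the larger side and 55 bp on the other. Under a reciprocal overlap of 50%, which by construction admits almost no such pair, 0.0374% of one-to-one regions differed by this factor.

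**Figure D3:**
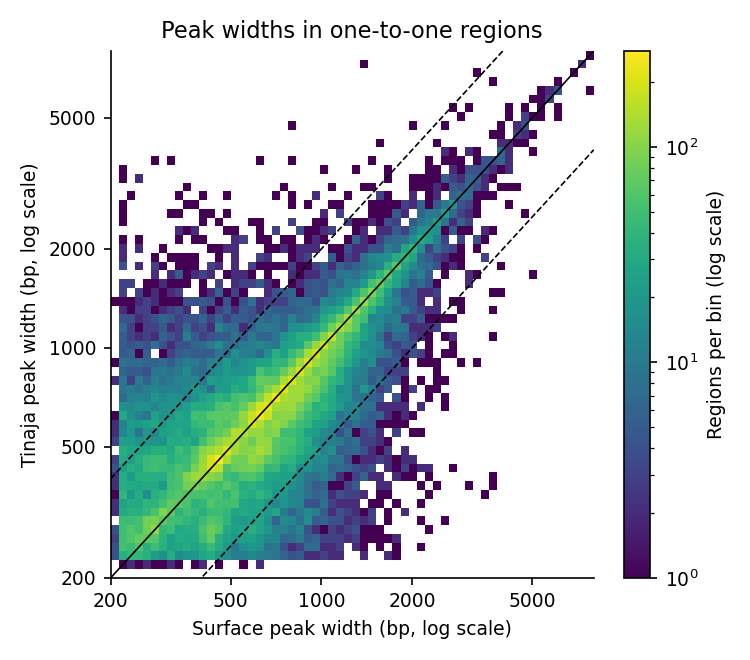
The x axis gives the Surface and the y axis the Tinaja peak width in bp, both on log scales, for one-to-one regions on chromosomes. Colour gives the number of regions per bin on a log scale, the solid line marks equal width and the dashed lines a factor of 2. Most of the 36187 regions lie along the solid line, and 5.07% lie on or above the upper and 4.58% on or below the lower dashed line, with peaks over 8000 bp not drawn.

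The largest ratios paired a narrow peak of one form with a wide peak of the other, and in 9 of these 10 regions the narrow peak lay wholly inside the wide one. On chromosome 15, positions 1282070 to 1285574, a Surface peak of 218 bp lay inside a Tinaja peak of 3505 bp, a ratio of 16.1. On chromosome 1, positions 20956077 to 20959399, the widths were 219 bp in Surface and 3323 bp in Tinaja, a ratio of 15.2. The third to the fifth lay on chromosomes 21, 6 and 16, with Tinaja peaks of 3305, 3280 and 3719 bp against Surface peaks of 244, 254 and 289 bp. In the opposite direction the ratios were smaller. On chromosome 6, positions 35032510 to 35036331, a Surface peak of 3698 bp covered 67.4% of a Tinaja peak of 380 bp, a ratio of 9.73. On chromosome 14, positions 5846924 to 5850384, a Surface peak of 3461 bp faced a Tinaja peak of 357 bp, and for chromosome 7 at positions 20566146 to 20569936 these were 3791 and 408 bp. The others, with ratios of 8.85 and 8.42, lay on chromosomes 14 and 9. These regions are shared by the rule, yet most of the wide peak was called in a single list.

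The longest shared regions were of similar extent in both forms. The longest, on chromosome 25 at positions 26629846 to 26654901, spanned 25056 bp, with 23729 bp under 2 Surface peaks and 22605 bp under 3 Tinaja peaks. Chromosome 3 had at positions 53623174 to 53639375 a Surface peak of 16132 bp that matched a Tinaja peak of 15970 bp. A second region of chromosome 3, at positions 6951438 to 6966260, had 14823 bp in Surface and 14002 bp in Tinaja. The fourth, at positions 8936797 to 8951525 of chromosome 23, had 14365 bp in Surface and 14729 bp in Tinaja. The fifth, on chromosome 22 at positions 10379408 to 10393810, differed most, with 14403 bp in Surface and 11757 bp in Tinaja, a ratio of 1.22. Gene names are not assigned to any of these intervals.

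The 10 longest gained regions on chromosomes were 3620 to 5865 bp long, each a single Tinaja peak, and lay on 10 chromosomes. The longest was on chromosome 13 at positions 24467077 to 24472941, with 5865 bp and 6520 bp to the nearest Surface peak. It was followed by a 5652 bp peak on chromosome 2 at positions 18048507 to 18054158, one of 5258 bp on chromosome 10 at positions 32594068 to 32599325 and one of 5188 bp on chromosome 8 at positions 24414486 to 24419673. The fifth, of 4501 bp, was on chromosome 16 at positions 13367721 to 13372221. Their distance from other open chromatin varied. The region of 4103 bp on chromosome 5 at positions 31349640 to 31353742 lay 86124 bp from the nearest shared region, whereas that of 4198 bp on chromosome 11 at positions 9168865 to 9173062 lay 274 bp from one. The remaining regions were on chromosomes 3, 15 and 1, with 4067, 4009 and 3620 bp.

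The 10 longest lost regions were 3152 to 5484 bp long, each a single Surface peak, and came from the smaller class (12689 against 19801 regions). The longest was on chromosome 12 at positions 1093205 to 1098688, with 5484 bp and 2565 bp to the nearest Tinaja peak. A 4646 bp peak on chromosome 23 at positions 34635830 to 34640475 and a 4241 bp peak on chromosome 6 at positions 28868206 to 28872446 followed. Peaks of 4158 bp on chromosome 20 at positions 36235231 to 36239388 and of 4098 bp on chromosome 9 at positions 10388534 to 10392631 came next. The former lay 548 bp from a shared region and the latter 20038 bp. The others were on chromosomes 22, 21, 3, 7 and 14, with 3766, 3571, 3376, 3194 and 3152 bp.

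Gained regions outnumbered lost ones on each of the 25 chromosomes, by amounts that varied. Tinaja peaks also outnumbered Surface peaks on each of the 25, by a ratio from 1.035 on chromosome 17 to 1.232 on chromosome 21. As nearly all shared regions were one-to-one, the surplus of gained regions on a chromosome largely restates its surplus of Tinaja peaks. The ratio of gained to lost ranged from 1.08 on chromosome 17 to 1.93 on chromosome 23, with a median of 1.54. Chromosome 17 had 483 gained and 447 lost regions, so that gained regions made up 51.9% of the single-list regions with an interval of 48.7 to 55.1, and it was the only chromosome whose interval included 50%. Chromosome 23 had 928 gained and 481 lost regions (65.9%, interval 63.4 to 68.3), and chromosome 21 had 389 and 202 (65.8%, interval 61.9 to 69.5). The interval lay above the value of all chromosomes on 7 and below it on 7. With the same number of widest peaks from each list, 13 of 25 chromosomes had more gained than lost regions.

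Chromosomes 17, 11 and 21 stood at the ends of several orders. The share of gained regions was lowest on chromosome 11, at 22.7% (191 of 843, interval 19.96 to 25.6), and on chromosome 17, at 23.4% (interval 21.7 to 25.3), and these neighbours did not differ beyond their intervals. It was highest on chromosome 21, at 32.7% (interval 30.1 to 35.4), followed by chromosome 18 at 31.6% (interval 30.0 to 33.2) with an overlapping interval. The share of lost regions ran from 16.1% on chromosome 23 to 21.7% on chromosome 17 (interval 19.97 to 23.5). Chromosome 11 had the highest share of shared regions, at 59.2%, and chromosome 21 the lowest, at 50.4%. Chromosome 21 was also the sparsest, with 55.0 regions per Mb against a median of 74.7 over chromosomes and 82.9 on chromosome 14, where length was taken as the end of the last region.

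**Figure D4:**
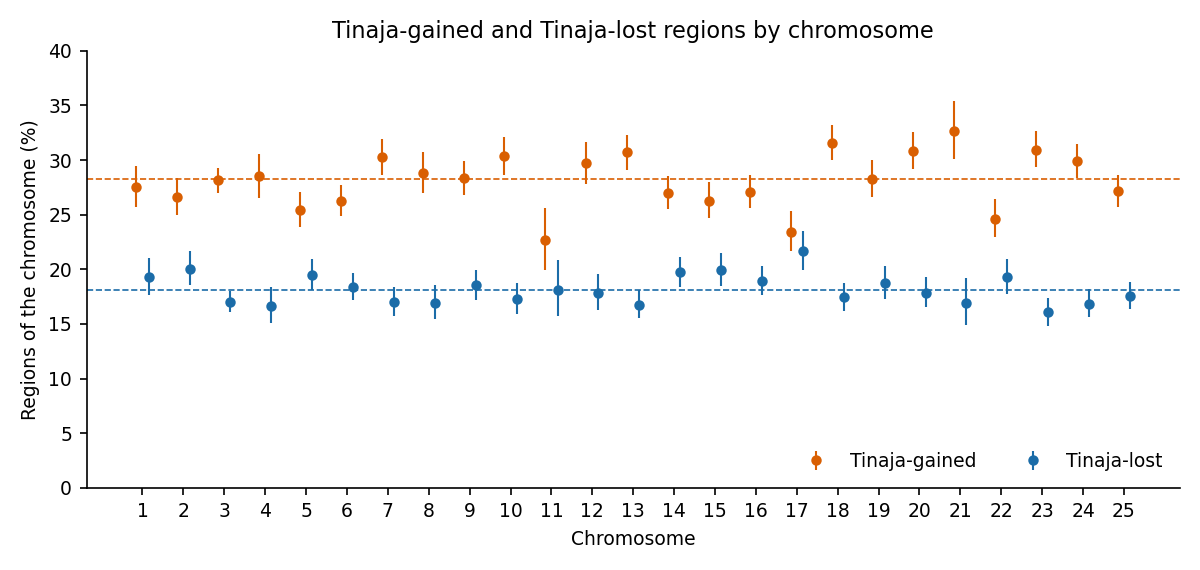
The x axis gives the chromosome and the y axis the percentage of its union regions that were Tinaja-gained or Tinaja-lost, with Wilson 95% intervals as bars and the values over all chromosomes, 28.3% and 18.1%, as dashed lines. The gained share lies above the lost share on every chromosome, most narrowly on chromosome 17.

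Lengths and widths varied little between chromosomes. The median length of gained regions ran from 357.5 bp on chromosome 4 to 395 bp on chromosome 21, that of lost regions from 357.5 bp on chromosome 22 to 391 bp on chromosome 11, and that of shared regions from 689 to 746.5 bp. The median log2 width ratio of one-to-one regions lay between -0.043 on chromosome 11 and 0.0053 on chromosome 24. It was below 0 on 21 of 25 chromosomes, with an interval wholly below 0 on 7 and wholly above 0 on 0. Position along the chromosome made little difference. Over 10 equal bins of a chromosome's length, pooled over chromosomes, the share of gained regions ran from 27.2% to 29.4% and that of lost regions from 17.7% to 18.8%.

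Gained and lost regions, alike in length, differed in their distance to shared regions. The median distance to the nearest shared region was 5312 bp for lost regions (interval 5134 to 5452), close to the 5318 bp between a shared region and the nearest other shared one (interval 5261 to 5387). For gained regions it was 10045 bp (interval 9831 to 10317). Within 1000 bp of a shared region lay 2135 lost regions (16.8%) and 1472 gained regions (7.43%), against 15.5% of shared regions. At 50 kb or more from any shared region lay 607 lost regions (4.78%) and 2301 gained regions (11.6%), against 3.15% of shared regions. The median gap between neighbouring peaks was also larger in the Tinaja list, at 7896 bp against 7459 bp in the Surface list. As the Tinaja list held more peaks on the same chromosomes, this median does not mean a larger mean gap.

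The balance of gained and lost regions turned over with this distance. Under 1 kb from a shared region, lost regions were the more numerous, and gained ones made up 40.8% of the single-list regions (interval 39.2 to 42.4), a ratio of gained to lost of 0.690. From 1 to under 5 kb the gained share was 53.3% (4563 gained, 4004 lost), from 5 to under 20 kb 62.8% (7521 and 4463) and from 20 to under 50 kb 72.7% (3944 and 1480). At 50 kb or more it was 79.1% (interval 77.6 to 80.6), a ratio of 3.79. The rise was present in regions under 500 bp, from 40.8% to 79.8%, and in those of 500 bp or more, from 40.7% to 77.5%. On each of the 25 chromosomes the ratio at 20 kb or more exceeded that under 5 kb. The ratio under 5 kb lay between 0.800 on chromosome 22 and 1.30 on chromosome 4, and that at 20 kb or more between 1.40 on chromosome 17 and 4.07 on chromosome 23.

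The same rise was found where the Tinaja list was cut to its 50924 widest peaks, the length of the Surface list, with a gained share of 29.5% under 1 kb and 70.8% at 50 kb or more. Distance and class are tied in part by construction. A Surface peak that is missing from the list turns a shared region into a gained one and at the same time removes a shared neighbour. A missing Tinaja peak does the same with a lost region. With the distance taken to shared regions of at least 1000 bp alone, the share was 39.8% under 1 kb and 69.4% at 50 kb or more. Such regions still need a peak of both lists, so this setting does not remove the tie. Its far group was also larger, with 7952 gained and 3499 lost regions against 2301 and 607. The contribution of unequal depth or of signal quality between the libraries was not tested.

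Widths within shared regions followed the same order. In one-to-one regions less than 1 kb from the nearest other shared region, the median log2 ratio of Tinaja over Surface width was -0.086 (interval -0.099 to -0.075). It was -0.017 from 1 to under 5 kb, -0.0048 from 5 to under 20 kb, 0.040 from 20 to under 50 kb (interval 0.030 to 0.051) and 0.15 at 50 kb or more (interval 0.12 to 0.19, over 1140 regions). Tinaja peaks were thus the narrower where shared regions were crowded and the wider where they were isolated. This measure does not use the count of gained or lost regions, but it comes from the same lists. Its grouping by distance also depends on which regions were classed as shared. The median log2 ratio also varied with the mean width of the paired peaks. It was 0.092 under 300 bp, 0.021 from 300 to under 500 bp and -0.045 from 500 to under 1000 bp. From 1000 to under 2000 bp it was -0.018, and from 2000 bp it was 0.0084. The class under 300 bp began at unlike widths, 212 bp in Surface and 226 bp in Tinaja. How far these limits set its ratio was not tested. Whether the order by distance holds within width classes was not tested.

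Counted per 1 Mb window, lost regions rose with the number of shared regions, whereas the median number of gained regions stayed between 19 and 22. Of 944 windows with a region, 934 held at least 20. In the 93 windows with fewer than 20 shared regions the median window had 22 gained regions (range 4 to 51) and 6 lost regions (range 0 to 16). In the 99 windows with at least 60 shared regions it had 19 gained (range 6 to 45) and 19 lost regions (range 8 to 37). The windows between had medians of 22, 21, 20 and 19 gained and 10, 12, 14 and 18 lost regions, in order of rising numbers of shared regions. The ranges overlapped between neighbouring groups of windows. As with distance, this grouping is tied to the classes in part by construction. A peak missing from a list turns a shared region of the window into a single-list one. The minimum of 20 regions left out 10 windows, all with fewer than 20 shared regions, and with these included, a setting added after the data were seen, the 103 sparsest windows had a median of 20 gained (range 0 to 51) and 6 lost regions. Gained regions outnumbered lost ones in 87 of the 93 sparsest windows (93.5%) and in 42 of the 99 densest (42.4%). The median log2 width ratio fell from 0.054 in the sparsest (interval 0.039 to 0.079) to -0.028 in the densest windows (interval -0.036 to -0.021).

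**Figure D5:**
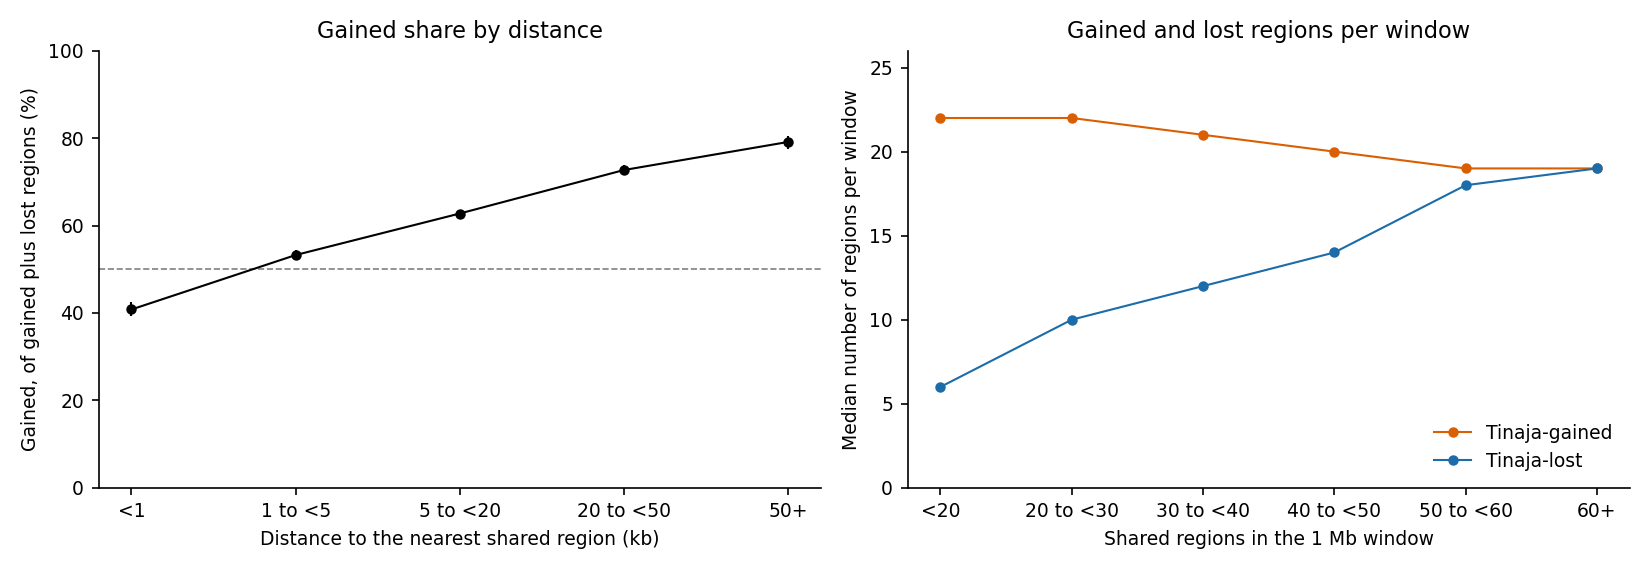
Left, the x axis gives the distance to the nearest shared region in kb and the y axis the percentage of single-list regions that were gained, with Wilson 95% intervals as bars and 50% dashed, which rises from 40.8% to 79.1%. Right, the x axis gives the number of shared regions in a 1 Mb window and the y axis the median number of gained and of lost regions per window, where lost regions rise from 6 to 19 and gained regions go from 22 to 19.

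Neighbouring regions tended to be of 1 class. The region after a gained one was gained in 8109 of 19795 cases, or 40.96% (interval 40.3 to 41.6), against 28.3% gained among all regions. After a lost region the next was lost in 22.8% (interval 22.1 to 23.5), against 18.1% of all. After a shared region it was shared in 59.1%, against 53.6%. A gained region was followed by a lost one in 15.5% and a lost region by a gained one in 23.9%, both below the shares of those classes in all regions. Regions without a neighbour of their class on either side made up 60.7% of the lost and 38.2% of the gained regions, and 4842 gained regions (24.5%) stood in runs of over 3, compared with 759 lost regions (5.98%). The gained class was the larger (28.3% against 18.1% of all regions), which by itself lengthens runs. How much of the difference between the classes this accounts for was not calculated.

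The longest runs of gained regions were longer than those of lost regions, which were the smaller class. On chromosome 24, positions 31531017 to 31935426, 15 consecutive gained regions spread over 404 kb, none longer than 851 bp. Runs of 14 lay on chromosome 10 at positions 22315113 to 22602140 (287 kb), on chromosome 13 at positions 30178335 to 30263103 (84.8 kb) and on chromosome 19 at positions 23255433 to 23500719 (245 kb), and the first by chromosome of 3 runs of 13 on chromosome 7 at positions 28443677 to 28607206. The longest run of lost regions held 8, on chromosome 17 at positions 21674232 to 21722020 (47.8 kb). Runs of 7 lay on chromosomes 9, 15, 16 and 17. The one on chromosome 16, at positions 24065368 to 24074513, was the most compact, with 5290 bp of open sequence within 9.15 kb. The longest runs of shared regions, 20 each, were on chromosome 15 at positions 10838898 to 11116577 and on chromosome 22 at positions 4538013 to 4827710.

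Shares of the classes were uneven from window to window. Over the 934 windows the median share was 27.1% for gained and 17.8% for lost regions, so the more numerous class had the higher base. The highest gained share was on chromosome 6 from 23000001 to 24000000, where 51 of 63 regions (81.0%, interval 69.6 to 88.8) were gained, 8 shared and 4 lost. On chromosome 24 from 11000001 to 12000000, 38 of 49 were gained, 10 shared and 1 lost, and on chromosome 18 from 33000001 to 34000000, 48 of 62 were gained, 13 shared and 1 lost. Windows on chromosome 21 from 19000001 to 20000000 and on chromosome 5 from 6000001 to 7000000 held 23 of 30 and 28 of 37 gained regions, with 2 shared regions each. These were the 5 highest of 934 windows. The highest lost share was 38.5%, on chromosome 13 from 11000001 to 12000000, where 15 of 39 regions were lost, 14 shared and 10 gained. On chromosome 5 from 19000001 to 20000000, 25 of 67 were lost, and on chromosome 17 from 6000001 to 7000000, 24 of 68 were lost. The latter window held one of the runs of 7 lost regions, at positions 6823126 to 6883767. Gained regions outnumbered shared ones in 135 windows, and lost regions did so in 6.

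At the other end, the highest shared share was 77.1%, on chromosome 12 from 22000001 to 23000000, with 27 of 35 regions shared, 4 gained and 4 lost. It was followed by chromosome 17 from 25000001 to 26000000, with 43 of 56 shared. On chromosome 22 the windows from 18000001 to 19000000 and from 28000001 to 29000000 held 45 of 61 and 66 of 90 shared regions. The longest stretches without a peak in either list were 1112 kb on chromosome 21 from 7514975 to 8627226, 978 kb on chromosome 7 from 10657663 to 11635427 and 977 kb on chromosome 5 from 20934466 to 21911600.

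Unplaced scaffolds, sequences not assigned to a chromosome, carried 32268 of the 102346 regions, with a lower shared share than chromosomes. There 15812 regions (49.0%, interval 48.46 to 49.55) were shared, against 53.6% on chromosomes. Gained regions numbered 10221 (31.7%, interval 31.2 to 32.2) against 28.3%, and lost regions 6235 (19.3%, interval 18.9 to 19.8) against 18.1%. The ratio of gained to lost was 1.64. A shared region was present on 1673 of 2018 scaffolds. On 200 scaffolds with 377 regions Surface had no peak, and on 84 scaffolds with 142 regions Tinaja had none.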

How the data were processed

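ATAC-seq peak lists of Surface and Tinaja cave liver were analysed. Per the submitters' processing notes, bcl2fastq 2.20, Bowtie2, SAMtools and MACS2 were used. Settings, build, threshold and pooling of replicates were not given in these sources. The deposited lists have 6 columns. The deposited score is 0 throughout and was not used. Coordinates are those of the lists, written 1-based. The gene table at hand is for AstMex3 and was not shown to be of the lists' build, so no gene and no sequence is given. On 4 of 25 chromosomes regions lay beyond its last gene. This count cannot decide the build, because regions can lie beyond the last gene in the same build too.

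Peaks were merged in Python 3.11.15 with pandas 2.3.3 and numpy 2.4.6, intervals came from scipy 1.17.1, and merging and classing were checked on simulated data. Shares have Wilson 95% intervals and medians binomial order-statistic 95% intervals. The Pachon list entered no class and was read only for the regions of the whole series. Named are the longest regions, runs, extreme width ratios, regions with most peaks and windows richest in a class, by rank. The comparison and these lists were chosen with earlier results of these data known. The analysis by distance to shared regions was added after the data were seen. Alternatives changed the sequences, overlap, merging, width limit, peak ends or list lengths.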

Additional observations from a re-analysis of the deposited data

How the results depend on the processing

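No paired analysis was possible because each form has 1 list, so no replicate could be left out either. Counts of shared, gained and lost regions kept within 1.5 times under every alternative except that gained regions numbered 30022 with scaffolds included. Equal numbers of widest peaks gave a gained share of single-list regions of 49.9%, below 50%, with 13 chromosomes having more gained than lost regions, 70.3% of Tinaja and 70.2% of Surface peaks matched and a median log2 width ratio of -0.0012. That setting removes only the narrowest Tinaja peaks. By construction, equal list lengths bring the gained share near 50% and both matched shares near each other. Reciprocal overlap of 50% gave a gained share of 58.1%, with 55.1% of Tinaja and 63.0% of Surface peaks matched. A one-to-one pair that fails this rule becomes 1 gained and 1 lost region. By construction this lowers the matched shares and draws the gained share towards 50%. With peaks of at least 300 bp the gained share was 60.4%, 74.6% of Surface peaks were matched and the log2 width ratio was -0.020. With scaffolds, 64.5% of Tinaja and 74.2% of Surface peaks were matched and the width ratio was -0.0046. With 500 bp peaks 63.9% and 73.3% were matched, and with peaks within 200 bp merged 75.6% of Surface peaks.

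Under 1 kb from a shared region, the gained share was 42.7% with scaffolds, 42.6% under reciprocal overlap, 38.5% with peaks of at least 300 bp, 44.4% with 500 bp peaks and 29.5% with equal numbers of widest peaks. At 50 kb or more it was 74.2% under reciprocal overlap, 70.8% with equal numbers and 69.4% from shared regions of at least 1000 bp. It stayed below 50% near and above 50% far under each alternative run. For moves where no construction is named, the cause was not tested. Of 35 further values (lengths, distances and width changes), 11 stayed within their interval and 24 moved. None of these values has a direction that could change. Some moves were fixed by the setting, such as the median lengths of 500 bp for gained and lost regions with 500 bp peaks. Depth is unknown, so a region missing from a list is not shown to be closed.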
